A study of Mus musculus with 11 samples.

Results

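The genes described here are 10 transcripts of blood-derived cells, found by symbol among the 20640 genes of the RPKM table: Ptprc, which encodes the surface phosphatase CD45 of leukocytes, the macrophage genes Lyz2, Cd68, Adgre1, Csf1r, C1qa, C1qb and Mrc1, and the neutrophil genes S100a8 and S100a9. All 10 had a row. They were followed because the sort that produced the samples excluded CD45+ cells, so that their RNA levels are a check of that exclusion. RPKM is the number of reads of a gene divided by its length and by the size of the library, so levels of different genes can be compared per length.

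The study sorted YFP+ cells from limb muscle of Pax7-CreERT2;Rosa-YFP mice. In these mice a tamoxifen-activated Cre recombinase under Pax7 control switches on YFP in muscle stem cells and, by inheritance, in the cells that descend from them. Every animal group received tamoxifen by mouth at 240 mg/kg on 5 days, at an age of 12 to 14 weeks. Cells positive for Sca-1, CD31 or CD45 (genes Ly6a, Pecam1 and Ptprc) were gated out, and the CD31 and CD45 antibodies carried the same dye, APC. The middle-aged group (3 libraries, aged 10 to 14 months per sample and 12 to 14 months per protocol) has no VCAM1 gate in its titles. The geriatric groups came from mice older than 28 months and were divided by surface VCAM1. Of these, 3 libraries are VCAM1-high, 2 are VCAM1-low and 3 are VCAM1-negative. Any comparison with the middle-aged group therefore changes age, gating and time since labelling together, and these cannot be told apart. No label says that replicates are separate animals, so every p-value refers to the spread among libraries, which may be technical.

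CD45 stands on the surface of all nucleated blood-derived cells. Skeletal muscle holds resident macrophages, which make the complement component C1q and the mannose receptor and depend on signalling through the CSF1 receptor. Neutrophils and monocytes enter muscle from the blood, above all after injury, and carry large amounts of the calcium-binding proteins S100A8 and S100A9. Muscle stem cells themselves are not of the blood lineage. PU.1 (gene Spi1) and the C/EBP proteins are the transcription factors best known for driving myeloid genes.

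The promoters of some members are shown first, with matches to motifs of the myeloid factors named above. Whether these motifs have a part in the members' levels was not tested. RefSeq windows were taken for 7 of the 10 members. The search for members' windows left out a chromosome that the count over all windows kept. A member without a window here may therefore have one. The 250 bases before the start of transcription are given below for Lyz2 (chr10:117282273-117282522, minus strand), C1qb (chr4:136886201-136886450, minus strand), S100a8 (chr3:90668821-90669070, plus strand) and S100a9 (chr3:90695722-90695971, minus strand), in build GRCm38.p6, 5′ to 3′ along the gene. Capitals mark matches on either strand to the PU.1 core AGGAAG or to the C/EBP motif TTGCNNAA.
Lyz2: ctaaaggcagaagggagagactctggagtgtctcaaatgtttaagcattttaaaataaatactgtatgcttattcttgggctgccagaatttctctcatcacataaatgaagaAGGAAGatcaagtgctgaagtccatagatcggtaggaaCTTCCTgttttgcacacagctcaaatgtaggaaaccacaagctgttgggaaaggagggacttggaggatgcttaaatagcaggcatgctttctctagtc
C1qb: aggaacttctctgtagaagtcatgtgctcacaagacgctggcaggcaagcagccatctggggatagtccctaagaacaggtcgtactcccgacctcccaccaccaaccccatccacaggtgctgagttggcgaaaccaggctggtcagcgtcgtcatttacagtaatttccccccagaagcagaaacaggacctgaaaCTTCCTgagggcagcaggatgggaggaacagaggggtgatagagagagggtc
S100a8: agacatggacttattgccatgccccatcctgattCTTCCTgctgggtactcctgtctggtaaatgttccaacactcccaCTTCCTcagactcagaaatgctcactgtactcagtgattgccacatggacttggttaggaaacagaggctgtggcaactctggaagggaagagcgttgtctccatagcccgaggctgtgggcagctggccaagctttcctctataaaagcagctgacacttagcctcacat
S100a9: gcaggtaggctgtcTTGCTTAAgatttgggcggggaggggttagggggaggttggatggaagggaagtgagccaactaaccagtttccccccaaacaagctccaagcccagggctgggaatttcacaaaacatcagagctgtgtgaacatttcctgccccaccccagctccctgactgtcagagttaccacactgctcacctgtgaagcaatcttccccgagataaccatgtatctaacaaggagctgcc
The PU.1 core was found in the windows of 5 of the 7 members, against 29.5% of all 32851 windows of the same length. The C/EBP motif was found in 2, Cd68 and S100a9, against 9.56% of windows. None of the windows printed above holds both motifs. These are matches of letters and not measured binding sites.

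Before the members' own values, the state of the libraries needs stating. Sequencing depth, estimated from the step that 1 read makes in low RPKM values, ran from 19.84 to 29.62 Mreads (M for mega). Muscle stem cell RNA was present in every library: Pax7, the transcription factor that defines these cells, lay between 1.71 and 7.85 RPKM and Vcam1 between 48.6 and 418. VCAM1-high replicate 3 stood apart. The 10 members summed to 815 RPKM there, or 0.196% of all RPKM, against 4.10 in VCAM1-high replicate 1 and 20.0 in VCAM1-high replicate 2. The next highest sums were 215 in VCAM1-negative replicate 3 and 126 in middle-aged replicate 3. Sca-1 and CD31 RNA had another order: Ly6a and Pecam1 were highest in middle-aged replicate 3, at 66.3 and 20.5 RPKM, and reached 40.4 and 10.2 in VCAM1-high replicate 3. All members were highest in VCAM1-high replicate 3, where 10.4% of all tested genes have their highest value, and this held for 10 of 10 after rescaling libraries to an equal sum or by the median ratio. Results that rest on this library are given with and without it. In such bulk samples fewer cells of a type and less RNA per cell cannot be told apart.

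Ptprc, the gene of the antigen used for exclusion, was low, with 3 libraries at or below an estimated 1.08 reads and the other 8 between 22.8 and 527 reads. It was listed at 0, 0 and 0.508 RPKM in the middle-aged libraries, at 0.00952, 0.180 and 3.30 in VCAM1-high, at 0.371 and 0.166 in VCAM1-low and at 0.197, 0.316 and 0.754 in VCAM1-negative, always in the order of replicates 1 to 3. Only VCAM1-high replicate 3 exceeded 1 RPKM, at 17.5 times the median of the other 10 libraries. Its value corresponds to an estimated 527 reads, while the value in VCAM1-high replicate 1 corresponds to 1.08 reads. A value of 3 reads would be 0.0206 and 0.0237 RPKM in the middle-aged replicates listed at 0. With 1 library at 1 RPKM or more, Ptprc did not pass the filter for testing (1 RPKM in at least 2 libraries) and has no p-value.

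**Figure D1:**
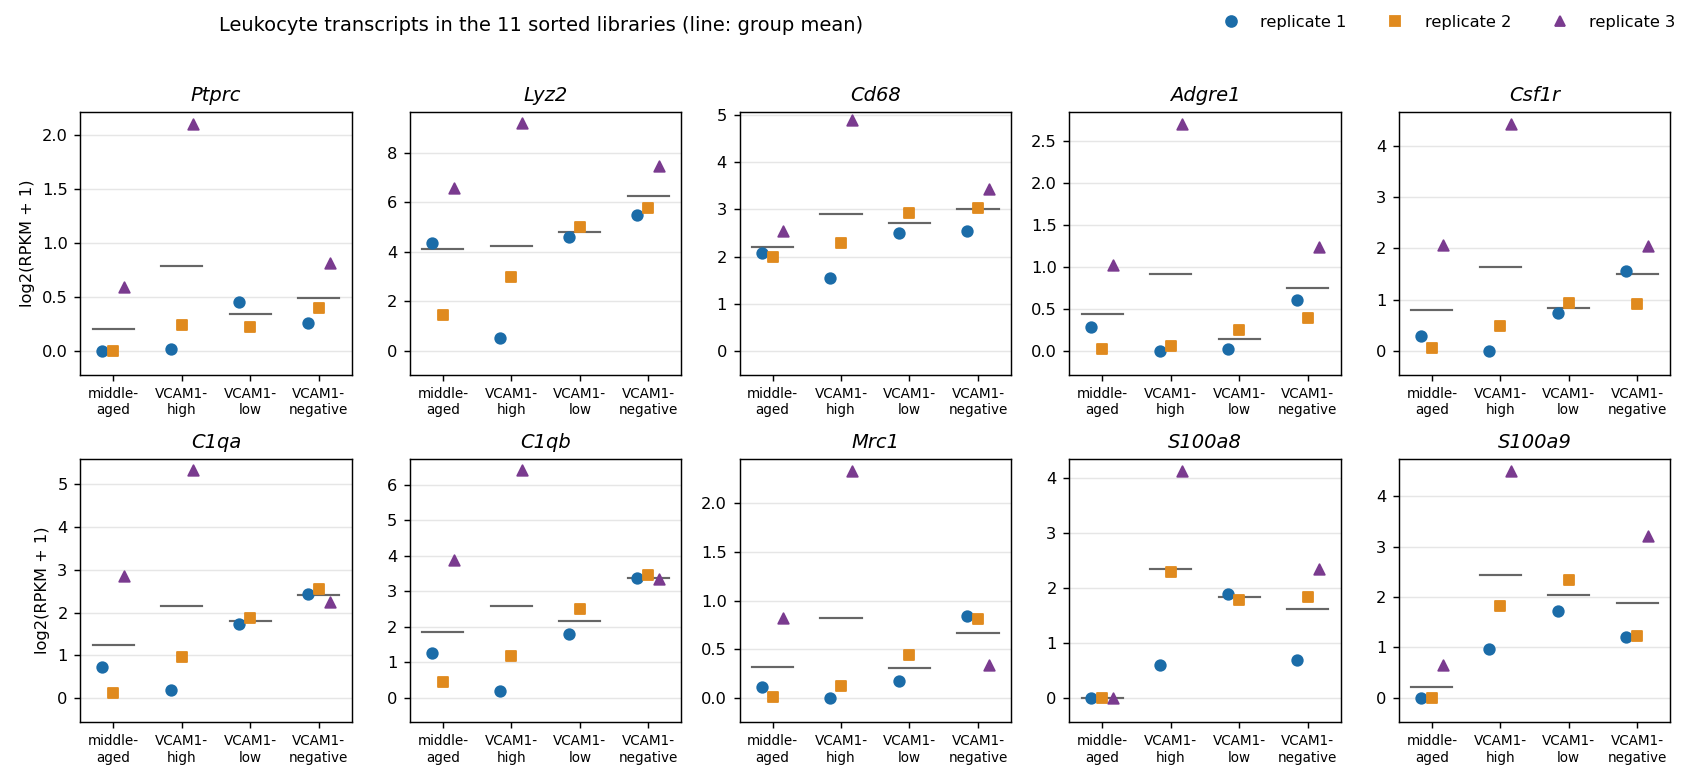
Levels of the 10 members as log2(RPKM + 1) on the vertical axis of each panel, with the 4 groups on the horizontal axis, 1 point per library (colour and shape give the replicate number) and a line at the group mean. VCAM1-high replicate 3 is the highest point in every panel, and S100a8 lies at 0 in all 3 middle-aged libraries.

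Lyz2, the lysozyme of macrophages, monocytes and granulocytes, had the highest single value of the members and the widest range among those never listed at 0. Middle-aged libraries had 19.6, 1.72 and 95.5 RPKM, VCAM1-high 0.426, 6.82 and 591, VCAM1-low 23.5 and 30.8, and VCAM1-negative 43.9, 53.7 and 174. The highest value was 1388 times the lowest, and both came from the VCAM1-high gate. In VCAM1-high replicate 3 Lyz2 ranked 87 among all genes by RPKM. Its near-identical copy Lyz1 showed 35.9 RPKM in that library, 31.9 in VCAM1-negative replicate 3 and 7.86 in middle-aged replicate 3, and how the counting split reads between the copies is not known. The level of Lyz2 alone is uncertain to that extent.

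C1qa and C1qb encode chains of C1q, the complement starter protein that tissue macrophages secrete. C1qb stood at 1.42, 0.366 and 13.7 RPKM in the middle-aged libraries, at 0.136, 1.27 and 84.1 in VCAM1-high, at 2.48 and 4.70 in VCAM1-low and at 9.35, 9.99 and 9.18 in VCAM1-negative. C1qa followed it with 0.653, 0.0829 and 6.28 RPKM, then 0.139, 0.951 and 39.2, then 2.31 and 2.64, and then 4.44, 4.86 and 3.78. The VCAM1-negative libraries were close together for this pair (C1qb 9.50 ± 0.429, C1qa 4.36 ± 0.546, mean ± SD, n = 3), while the VCAM1-high libraries were spread widely (C1qb 28.5 ± 48.2, n = 3). The ratio of C1qb to C1qa was 2.15 in VCAM1-high replicate 3, 2.18 in middle-aged replicate 3 and 2.05 to 2.43 in VCAM1-negative. Middle-aged replicate 1 had a ratio of 2.18 too. The ratio was outside that range in 5 libraries: it was 4.41 for replicate 2 of the middle-aged group and 0.980 for VCAM1-high replicate 1, with an estimated 1.90 and 2.86 reads of C1qa, and 1.33 in VCAM1-high replicate 2, 1.07 in VCAM1-low replicate 1 and 1.78 in VCAM1-low replicate 2, with 24.3, 51.9 and 65.9 reads. C1qc, the remaining C1q chain, reached 65.2 RPKM in VCAM1-high replicate 3 and 10.3 in middle-aged replicate 3.

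Csf1r is the receptor for CSF1 and IL-34 on which macrophage survival rests, and Adgre1 encodes F4/80, the classical mouse macrophage surface antigen. Csf1r was at 0.223, 0.0347 and 3.21 RPKM in the middle-aged libraries, 0, 0.393 and 20.7 in VCAM1-high, at 0.658 and 0.899 in VCAM1-low and at 1.96, 0.881 and 3.13 in VCAM1-negative. VCAM1-high replicate 3 alone held 64.6% of the sum of Csf1r over the 11 libraries, the largest such share among the members. Adgre1 was lower throughout, at 0.218, 0.0138 and 1.03 RPKM, then 0, 0.0381 and 5.53, then 0.0143 and 0.192, and then 0.526, 0.313 and 1.35 in the same order of groups. Both genes were listed at 0 in VCAM1-high replicate 1 and highest in VCAM1-high replicate 3, so the lowest and the highest library belong to 1 gate. Exons of Csf1r overlap those of Hmgxb3 on the opposite strand in the GENCODE annotation, and whether the counting used strand is not stated, so reads of these genes may not be separated.

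Mrc1, the mannose receptor CD206 of resident macrophages, did not pass the filter either, since it exceeded 1 RPKM only in VCAM1-high replicate 3. Its values were 0.0812, 0.00843 and 0.771 RPKM in the middle-aged libraries, 0, 0.0852 and 4.05 in VCAM1-high, at 0.131 and 0.359 in VCAM1-low and at 0.798, 0.755 and 0.262 in VCAM1-negative. Cd68, a lysosomal glycoprotein that is abundant in macrophages, behaved differently from the other members in that no library was near 0. It was at 3.24, 2.98 and 4.78 RPKM in the middle-aged libraries, 1.92, 3.86 and 28.8 in VCAM1-high, at 4.65 and 6.62 in VCAM1-low and at 4.84, 7.14 and 9.87 in VCAM1-negative. The highest value was 15.0 times the lowest, against 473 for C1qa, 619 for C1qb and 1388 for Lyz2. The ratio of Lyz2 to Cd68 accordingly ran from 0.221 in VCAM1-high replicate 1 to 20.5 in VCAM1-high replicate 3.

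S100a8 and S100a9 encode the subunits of calprotectin, an abundant cytosolic protein of neutrophils, which monocytes also carry. S100a8 was listed at 0 in all 3 middle-aged libraries and at 0.510, 3.89 and 16.6 RPKM in VCAM1-high, at 2.72 and 2.43 in VCAM1-low and at 0.607, 2.59 and 4.10 in VCAM1-negative. S100a9 was listed at 0, 0 and 0.576 RPKM in the middle-aged libraries and at 0.960, 2.53 and 21.8 in VCAM1-high, at 2.31 and 4.06 in VCAM1-low and at 1.29, 1.33 and 8.26 in VCAM1-negative. For both genes each of the 8 geriatric libraries lay above all 3 middle-aged ones. That separation holds for 2 of 10 members and for 9.04% of all tested genes. No middle-aged library reached 1 RPKM for either gene, so both passed the filter for testing only through geriatric libraries. Their tests and separations against middle-aged cells, here and below, are therefore no independent support for a difference. At the middle-aged depths 3 reads of S100a8 would be 0.203 to 0.273 RPKM. Among 5446 genes with a median of 10 RPKM or more, 2 are listed at 0 in any library, so zeros of this table are rarely found in abundant genes. S100a8 is not among such genes, with a median of 2.65 RPKM even in the geriatric libraries, so that count does not gauge its zeros.

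The neutrophil and the macrophage members did not keep a fixed proportion. The sum of S100a8 and S100a9 over the sum of C1qa and C1qb was 0, 0 and 0.0288 in the middle-aged libraries, 5.35, 2.89 and 0.311 in VCAM1-high, at 1.05 and 0.885 in VCAM1-low and at 0.138, 0.264 and 0.955 in VCAM1-negative. The 5.35 rests on few reads, an estimated 5.04 and 9.88 of S100a8 and S100a9 and 2.86 and 2.93 of C1qa and C1qb. Middle-aged replicate 2 had an estimated 1.90 reads of C1qa and 8.77 of C1qb. Middle-aged replicate 3 thus had C1q RNA (20.0 RPKM for both chains) above every VCAM1-negative library (13 to 14.9), with 0.576 RPKM for the S100a genes against 1.90 to 12.4. Within VCAM1-high the proportion was lowest in the library with the most of both.

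**Figure D2:**
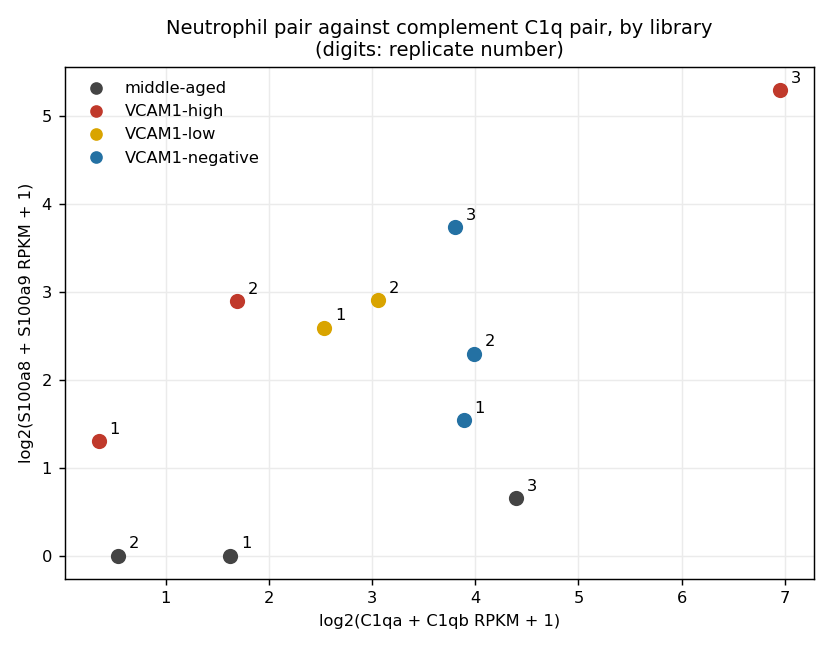
Each point is 1 of the 11 libraries, with log2 of the summed RPKM of C1qa and C1qb plus 1 on the horizontal axis and the same for S100a8 and S100a9 on the vertical axis, coloured by group and numbered by replicate. The 3 middle-aged libraries lie along the bottom, between 0 and 0.576 RPKM of S100a8 and S100a9, whatever their C1q level, and VCAM1-high replicate 3 is at the top right.

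The comparison of VCAM1-negative with VCAM1-high cells asks whether the 2 ends of the geriatric VCAM1 range differ in leukocyte RNA. No member passed. Tests used limma on log2(RPKM + 1) over the 11568 genes that passed the filter, and a member passes at an adjusted p under 0.05 by Benjamini and Hochberg. Of the 10 members 8 were tested and 0 passed (0.00% of all genes did), and 0 had an unadjusted p under 0.05 (6.53% of genes). The largest difference was that of Lyz2, 2.01 higher in VCAM1-negative on the log2 scale (SE 1.84, adjusted p = 0.883 by limma), with a 95% interval from -2.03 to 6.05. C1qb differed by 0.80 (SE 1.33, interval -2.12 to 3.72) and Cd68 by 0.10 (SE 0.66, interval -1.35 to 1.54). S100a8 and S100a9 differed by -0.71 (SE 0.70) and -0.56 (SE 0.79), with VCAM1-negative lower. The intervals include differences of either sign, and no member had groups that do not overlap (3.28% of genes had this with VCAM1-negative higher and 8.08% with VCAM1-high higher).

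These differences depend on single libraries. Without VCAM1-high replicate 1 that of Lyz2 was 0.15 (SE 1.70), and leaving out VCAM1-high replicate 2 or VCAM1-negative replicate 3 gave 1.38 and 1.40. VCAM1-high replicate 3 moved several members. Without VCAM1-high replicate 3, Lyz2 was higher in VCAM1-negative by 4.5 (SE 1.22, adjusted p = 0.464), C1qb by 2.71 (SE 0.77, adjusted p = 0.491), C1qa by 1.84 (SE 0.62), Csf1r by 1.27 (SE 0.53) and Cd68 by 1.09 (SE 0.32), all by limma. These 5 members then had an unadjusted p under 0.05, against 6.22% of genes, and 0 passed after adjustment (0.00% of genes). Csf1r, Adgre1, S100a8 and S100a9 changed sign, from -0.13 to 1.27, from -0.17 to 0.72, from -0.71 to 0.19 and from -0.56 to 0.48. The members that read higher in VCAM1-high with all libraries thus all read higher in VCAM1-negative without this one.

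**Figure D3:**
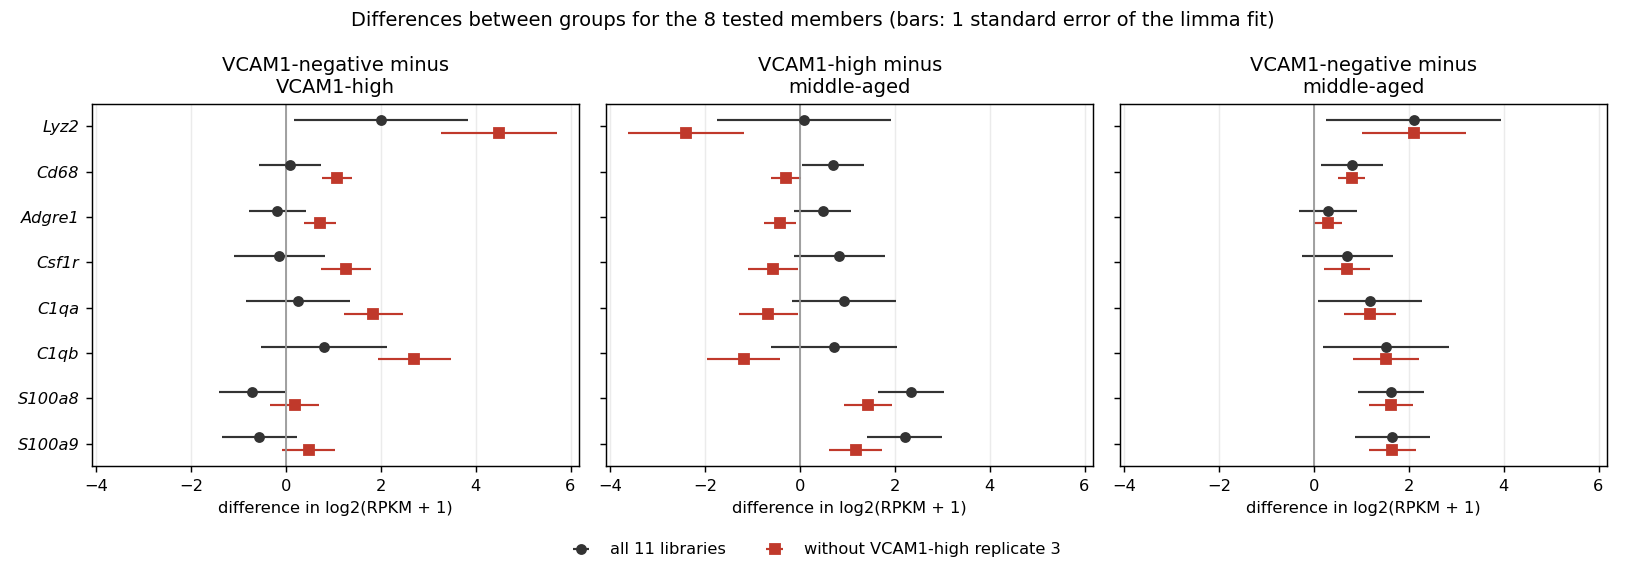
Differences in log2(RPKM + 1) for the 8 tested members in 3 comparisons, with all 11 libraries (black circles) and without VCAM1-high replicate 3 (red squares), and bars of 1 standard error of the limma fit. Lyz2 in VCAM1-negative minus VCAM1-high moves from 2.01 to 4.5, while S100a8 and S100a9 stay above 0 in both comparisons with the middle-aged group.

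Replicate numbers were shared between gates, and same-numbered geriatric libraries deviated together over all genes, so the gates were also read within each number. In number 1 all 10 members were higher in VCAM1-negative than in VCAM1-high, against 38.3% of all tested genes. For S100a8 this rests on an estimated 7.51 against 5.04 reads. In number 2 this held for 8 of 10 (36.8% of genes), the exceptions being S100a8 and S100a9. In number 3 it held for 0 of 10 (47.3% of genes). For example, Lyz2 read 0.426, 23.5 and 43.9 RPKM from VCAM1-high over VCAM1-low to VCAM1-negative in number 1 and 6.82, 30.8 and 53.7 in number 2, but 591 in VCAM1-high and 174 in VCAM1-negative in number 3. The order high below low below negative was shared by numbers 1 and 2 for 6 members, Lyz2, Cd68, Adgre1, C1qa, C1qb and Mrc1, and for 5.87% of genes. Number 3 has no VCAM1-low library. A limma fit with the number as a block passed 0 members in this comparison and 0.562% of genes.

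**Figure D4:**
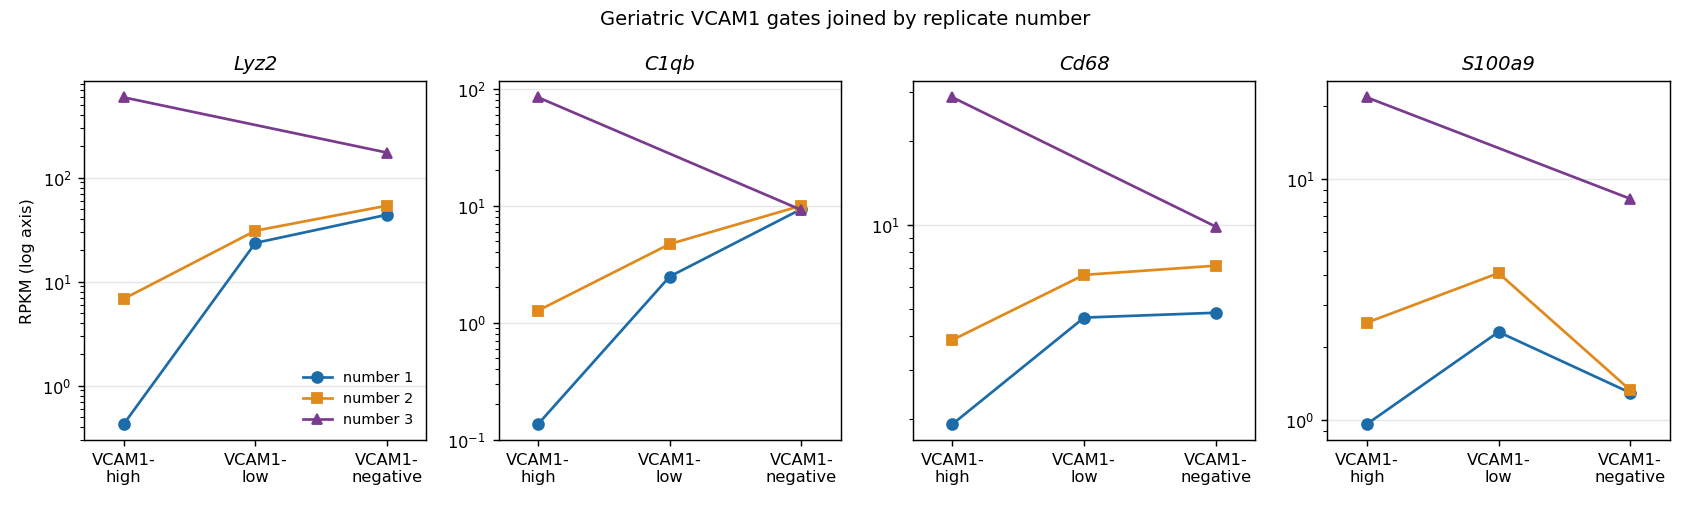
RPKM on a log axis for Lyz2, C1qb, Cd68 and S100a9 in the 3 geriatric gates, with lines joining libraries of the same replicate number (number 3 has no VCAM1-low library). For Lyz2, C1qb and Cd68, numbers 1 and 2 go up from VCAM1-high to VCAM1-negative and number 3 goes down.

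VCAM1-low cells, with 2 libraries, lay between the other gates in numbers 1 and 2 for 6 of the 7 macrophage members, as given above. Against VCAM1-high, 0 of 8 tested members passed (0.00% of genes) and 0 had an unadjusted p under 0.05 (2.91%). No member had libraries that do not overlap (3.91% of genes had this with VCAM1-low higher and 13.1% with VCAM1-high higher). VCAM1-negative against VCAM1-low gave 0 as well (0.00% and 1.88%). In the latter, 4 of 10 members had libraries that do not overlap, with VCAM1-negative higher, against 5.77% of genes, and 0 had VCAM1-low higher (5.10%). They were Lyz2, Adgre1, C1qa and C1qb, with C1qb at 9.18 to 9.99 RPKM against 2.48 and 4.70. Csf1r missed by a small margin, with its lowest VCAM1-negative value at 0.881 and its highest VCAM1-low value at 0.899 RPKM. The limma difference of C1qb was 1.24 (SE 1.48, interval -2.03 to 4.5) in a fit that takes its spread from all 4 groups.

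VCAM1-high against middle-aged cells compares geriatric stem cells of high VCAM1 with younger cells whose titles name no VCAM1 gate. S100a8 and S100a9 had the largest differences of the 8 tested members, but both passed the filter only through geriatric libraries, as given above. S100a8 was 2.34 higher (SE 0.70, unadjusted p = 0.00634, adjusted p = 0.153 by limma) and S100a9 2.21 higher (SE 0.79, unadjusted p = 0.0168, adjusted p = 0.224). Neither passed, as 0 of 8 tested members did (0.605% of genes), and these 2 had an unadjusted p under 0.05 (14.9% of genes). They were also the 2 of 10 whose libraries do not overlap with VCAM1-high higher (13.8% of genes), and 0 had the middle-aged group higher (6.36%). With S100a8 at 0 in every middle-aged library, its fitted difference depends on the value of 1 added before the logarithm and is no bound, and with 0.1 added it was 5.10 (adjusted p = 0.0410). Same-numbered libraries of these groups deviated together, and with the number as a block both passed, S100a8 at an adjusted p of 0.0363 and S100a9 at 0.0235, where 6.98% of genes passed. Without VCAM1-high replicate 3 and with no block, the differences were 1.44 (adjusted p = 0.170) and 1.18 (adjusted p = 0.286). With the block and without that library S100a9 passed (adjusted p = 0.0436) and S100a8 did not (adjusted p = 0.0808). Without VCAM1-high replicate 1 S100a8 passed, at 3.21 (adjusted p = 0.0481 by limma). The share of all genes passing was not counted without that library, with 0.1 added, or with the block and without VCAM1-high replicate 3.

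The macrophage members did not pass between VCAM1-high and middle-aged cells. Lyz2 differed by 0.10 (SE 1.84, interval -3.94 to 4.13), C1qa by 0.92 (SE 1.09), C1qb by 0.72 (SE 1.33), Csf1r by 0.84 (SE 0.96), Adgre1 by 0.48 (SE 0.61) and Cd68 by 0.70 (SE 0.66). All 6 read higher in VCAM1-high with every library and lower without VCAM1-high replicate 3, at -2.40 for Lyz2, -0.66 for C1qa, -1.19 for C1qb, -0.57 for Csf1r, -0.41 for Adgre1 and -0.29 for Cd68. Middle-aged replicate 3 was the highest of its group for all 7 macrophage members. Lyz2 was 95.5 RPKM there against 19.6 and 1.72 in the other middle-aged libraries.

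VCAM1-negative against middle-aged cells gave positive differences for all 8 tested members, and none passed, while 14.4% of genes did. S100a8 was 1.63 higher (SE 0.70, unadjusted p = 0.0395, adjusted p = 0.129 by limma) and S100a9 1.66 higher (SE 0.79, adjusted p = 0.163). Lyz2 was 2.1 higher (SE 1.84, interval -1.93 to 6.14), C1qb 1.52 (SE 1.33), C1qa 1.18 (SE 1.09), Cd68 0.80 (SE 0.66), Csf1r 0.70 (SE 0.96) and Adgre1 0.30 (SE 0.61). Leaving out 1 middle-aged library at a time moved the macrophage members: without replicate 2 Lyz2 was 0.76, C1qb 0.81, C1qa 0.62, Csf1r 0.33 and Adgre1 0.09, and without replicate 3 they were 3.33, 2.53, 2.0, 1.34 and 0.59. Middle-aged replicate 1 took Csf1r to 0.45, and without VCAM1-negative replicate 3 Csf1r was 0.43, Adgre1 0.06 and S100a9 0.99. Adgre1 was 0.48 without VCAM1-negative replicate 2. None passed in these fits. Of the tested members 1 had an unadjusted p under 0.05 (33.8% of genes). Cd68, S100a8 and S100a9 had libraries that do not overlap, 3 of 10 against 18.7% of genes, while 0 had the middle-aged group higher (20.3%). Cd68 did so narrowly, with 4.84 RPKM as its lowest VCAM1-negative and 4.78 as its highest middle-aged value. Without VCAM1-high replicate 3, which adds only to the shared spread, S100a8 and S100a9 passed (adjusted p = 0.0381 and 0.0462) where 15.7% of genes did. With the number as a block they passed too (adjusted p = 0.0448 and 0.0191), as 31.6% of genes did, although same-numbered libraries of these groups did not deviate together. Without the 3 libraries of number 3, C1qa and C1qb passed, at 2.08 (SE 0.31, adjusted p = 0.0188) and 2.55 (SE 0.42, adjusted p = 0.0253), where 4.91% of genes did.

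VCAM1-low against middle-aged cells gave 0 passing members (4.11% of genes), with 1 at an unadjusted p under 0.05 (26.4%), S100a8 at 1.84 (SE 0.78, adjusted p = 0.165). S100a8 and S100a9 had libraries that do not overlap, as 19.9% of genes did with VCAM1-low higher, and 0 members had the middle-aged group higher (24.9%). A limma F test over the 4 groups passed 0 of 8 members (3.32% of genes). Its unadjusted p was under 0.05 for 1 member, S100a8, against 21.9% of genes. The adjusted p of S100a8 in this limma F test was 0.188. With the replicate number as a block S100a8 and S100a9 passed the limma F test (adjusted p = 0.0440 and 0.0187), where 17.5% of genes did. They also passed in VCAM1-low against middle-aged cells (adjusted p = 0.0385 and 0.0144 by limma), where 15.8% did. Same-numbered libraries of VCAM1-low and middle-aged cells deviated together weakly at most (correlations 0.147 and 0.0318). The 3 comparisons with the middle-aged group share its libraries and are not independent of each other.

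Other genes of the macrophage lineage followed the members. In a list of 28 further macrophage and monocyte genes, 26 were highest in VCAM1-high replicate 3. Their summed RPKM ran from 27.3 in middle-aged replicate 2 to 954 in VCAM1-high replicate 3, with 323 in middle-aged replicate 3 and 259 in VCAM1-negative replicate 3. The most abundant was Cd74, the chaperone of MHC class II, at 305 RPKM in VCAM1-high replicate 3, 129 in middle-aged replicate 3 and down to 0.450 in VCAM1-high replicate 1. H2-Ab1, a class II chain, reached 109 and Ctss, a lysosomal protease, 80.5 in VCAM1-high replicate 3. Cd14, the endotoxin co-receptor, was never below 12.6 RPKM and reached 137. Of the 22 tested genes of this list 1 passed, Mpeg1, the perforin-like protein of macrophages, which was higher in VCAM1-negative than in middle-aged cells by 1.07 (SE 0.30, adjusted p = 0.0417 by limma), in a comparison that 14.4% of all genes passed. Mpeg1 did not follow the members, with 4.53 RPKM in VCAM1-high replicate 2 and 1.08 in VCAM1-high replicate 3. In the middle-aged libraries it was at most 0.637 RPKM, so it passed the filter for testing only through geriatric libraries. The median difference of the 22 between VCAM1-high and middle-aged cells was 0.78, against 0.04 over all genes tested. Without VCAM1-high replicate 3 this median was -0.47, against 0.02 over all genes, with 1 of the 22 passing, Mpeg1 (2.06% of genes did). The summed RPKM of the list in VCAM1-high replicates 1 and 2 was 39.5 and 64.8.

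In a list of 18 further neutrophil genes, 14 were highest in VCAM1-high replicate 3, and 9 could be tested. Lcn2, the siderophore-binding lipocalin that neutrophils store and other cells can secrete, was higher than in middle-aged cells in VCAM1-high by 3.43 (SE 0.56, adjusted p = 0.0266 by limma), in VCAM1-low by 3.13 (SE 0.62, adjusted p = 0.0299) and in VCAM1-negative by 2.62 (SE 0.56, adjusted p = 0.0170). Its levels were 0, 0.158 and 0.508 RPKM in the middle-aged libraries and 7.15, 24.0 and 9.69 in VCAM1-high, at 5.82 and 15.2 in VCAM1-low and at 3.07, 16.7 and 4.64 in VCAM1-negative. For Lcn2 each number-2 library was the highest of its geriatric gate. S100a8 and S100a9 were highest in number 3 within VCAM1-high and within VCAM1-negative. Within VCAM1-low, S100a8 was higher in number 1 and S100a9 in number 2. Chil3, a chitinase-like protein of activated macrophages and neutrophil precursors, was higher in VCAM1-negative than in middle-aged cells by 2.94 (SE 0.85, adjusted p = 0.0436). In the middle-aged libraries Chil3 was at most 0.0217 RPKM. Lcn2 and Chil3 thus passed the filter for testing only through geriatric libraries, and these tests are no independent support for a difference. The list thus had 1 of 9 tested genes passing in VCAM1-high, 1 in VCAM1-low and 2 in VCAM1-negative against middle-aged cells, where 0.605%, 4.11% and 14.4% of all genes did. Ly6g, the surface antigen that defines mouse neutrophils, did not exceed 0.470 RPKM in any library. Mpo, the granule peroxidase of neutrophil precursors, was at 4.18 RPKM in VCAM1-high replicate 3 and at or below 0.0393 in the other libraries.

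Among 19 pan-leukocyte genes, 17 were highest in VCAM1-high replicate 3, such as Laptm5, a lysosomal membrane protein, at 26.4 RPKM, and the adaptor gene Fcer1g at 18.1. Spi1, which encodes PU.1, was at 11 RPKM there, at 3.17 in VCAM1-negative replicate 3, at 1.97 in middle-aged replicate 3 and listed at 0 in middle-aged replicate 2 and VCAM1-high replicate 1. Lsp1 and Arhgdib were expressed in all libraries, Lsp1 between 70.1 and 104 RPKM, so their presence sets no library apart. None of the 14 tested genes of this list passed in a comparison. In the CSF1 receptor list of 11 genes, which includes Csf1r and Spi1, the growth factor gene Csf1 was between 11.4 and 13.6 RPKM in the middle-aged group and between 19.4 and 37.4 in the geriatric libraries and was higher in VCAM1-negative than in middle-aged cells by 1.14 (SE 0.29, adjusted p = 0.0295). Cebpa passed in VCAM1-negative against middle-aged cells too, at 0.82 (SE 0.23, adjusted p = 0.0414), and in VCAM1-low against middle-aged cells, at 1.12 (SE 0.26, adjusted p = 0.0430). Irf8, Runx1 and Cebpb, factors of the myeloid programme, were between 44.5 and 1756 RPKM in every library.

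Lists of other cell types peaked in various libraries. Of 6 mast cell and basophil genes 5 were highest in VCAM1-high replicate 3, and of 7 dendritic cell genes 4, with a sum of 9.55 RPKM there, 8.82 in middle-aged replicate 3 and 3.14 to 7.12 elsewhere. Mast cell genes summed to 7.76 RPKM in VCAM1-high replicate 3, 5.21 in VCAM1-high replicate 2 and 4.37 in middle-aged replicate 3, and to at most 0.0488 in the remaining 8 libraries. Of 12 T and NK cell genes 2 were highest in VCAM1-high replicate 3, and the list summed to between 0.711 and 3.65 RPKM. Of 7 B and plasma cell genes 3 were highest there, and Cd79a, a chain of the B-cell receptor complex, was higher than in middle-aged cells by 1.41 in VCAM1-high (SE 0.26, adjusted p = 0.0412), 1.41 in VCAM1-low (SE 0.29, adjusted p = 0.0337) and 1.53 in VCAM1-negative (SE 0.26, adjusted p = 0.00876). Its level in geriatric libraries was 4.5 to 8.07 RPKM. None of 11 endothelial genes was highest in VCAM1-high replicate 3, and that list summed to 322 RPKM in middle-aged replicate 3, against 130 in VCAM1-high replicate 3. None of 12 muscle stem cell genes and 1 of 11 fibro-adipogenic progenitor genes was highest there. The erythroid list, with 4 genes in the table, summed to 5.77 to 165 RPKM in middle-aged libraries, 14.0, 54.0 and 488 in VCAM1-high, at 524 and 650 in VCAM1-low and at 346, 650 and 194 in VCAM1-negative. The myofibre genes of 1 list passed in VCAM1-negative against middle-aged cells in 10 of 11 cases, all higher (14.4% of all genes passed there, in either direction), for instance Acta1 by 4.05 (SE 0.81, adjusted p = 0.0141). What part these other RNAs have in the members' differences was not tested.

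**Figure D5:**
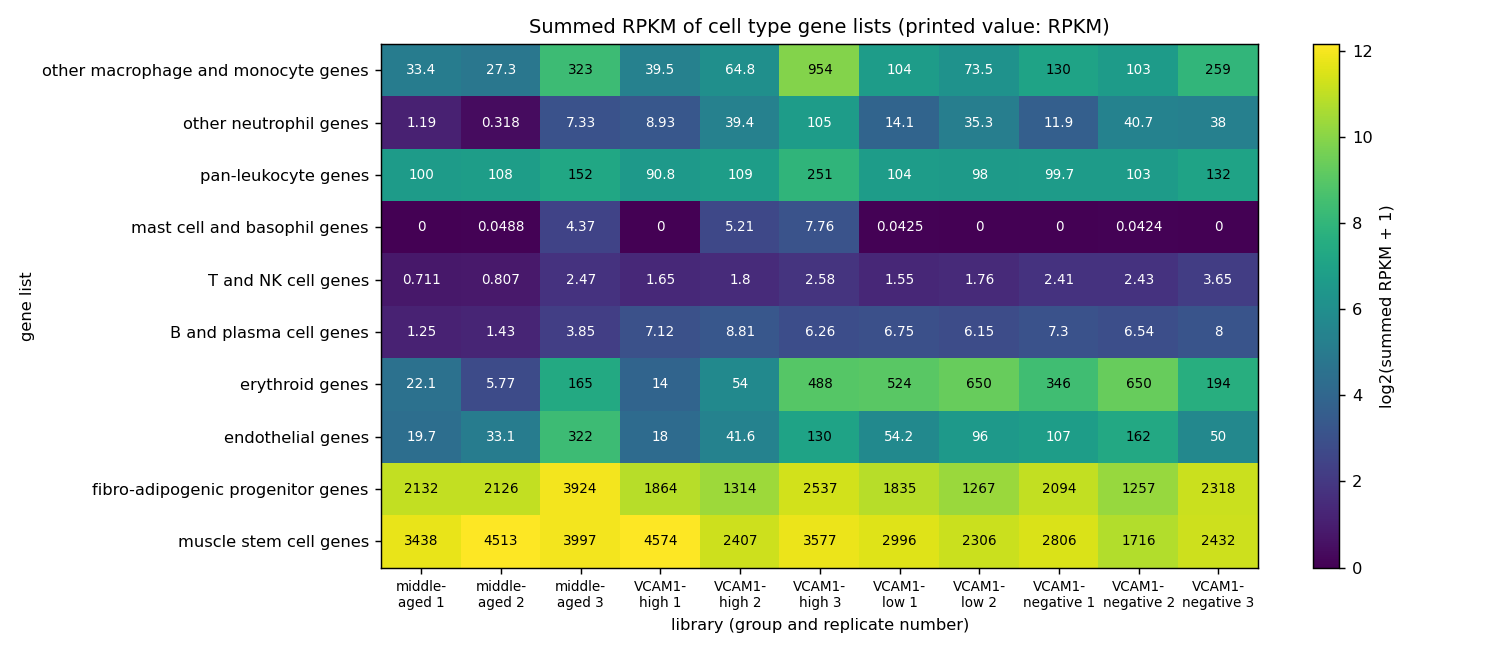
Summed RPKM of 10 gene lists (rows) in the 11 libraries (columns, group and replicate number), coloured by log2(summed RPKM + 1) with the sum printed in each cell. The macrophage, neutrophil and pan-leukocyte rows peak in VCAM1-high replicate 3 (954, 105 and 251 RPKM), the endothelial row in middle-aged replicate 3 (322 RPKM).

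The genes whose levels ran most like the macrophage members were leukocyte genes as well. The profile was the mean of the standardised log2 values of the 6 tested macrophage members over 11 libraries. Pearson's r with it was 0.988 for Alox5ap (the activator of leukotriene synthesis), 0.986 for the Fc receptor gene Fcgr3, 0.986 for Laptm5, 0.984 for Lilr4b, 0.983 for the adaptor gene Tyrobp, 0.982 for the inhibitory Fc receptor gene Fcgr2b, 0.981 for the tetraspanin gene Cd53 and 0.979 for the complement receptor gene C5ar1. These values are a description over libraries that include VCAM1-high replicate 3, where all 8 are highest, and carry no p. For S100a8 and S100a9 the closest genes were Retnlg, a resistin-like gene of neutrophils (r = 0.954), Myof (0.932), Ninj1 (0.931) and Slpi (0.916). Ninj1 was at 30.3 to 60.7 RPKM in all libraries, so a high r here does not require a gene to be near 0 where the members are.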

How the data were processed

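RNA of sorted YFP+ limb muscle cells was amplified with the SMART-Seq v4 kit and sequenced on a HiSeq instrument, per the labels' protocols. STAR 2.7.5b, Bowtie2 2.1.0, cutadapt 3.1, SAMtools 0.1.19 and build GRCm39 appear in the submitters' processing notes. Which counter, annotation and gene lengths were used is not given in the sources read. RPKM values were deposited by the authors for 20640 genes in 11 libraries, of which 2161 genes are 0 in every library.

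Depth was estimated from values of 0.1 RPKM or less of single-transcript genes and their GENCODE vM21 lengths, another annotation than the authors'. Between 64.5% and 75.2% of these values lay within 0.1 of a whole read. Each depth was itself chosen for a high share of this kind. The 20% that chance gives at a fixed depth is therefore not a like baseline, and depths and reads are estimates.

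Tests used limma 3.58.1 (R 4.3.3) on log2(RPKM + 1): 4 group means, a variance trend, the 11568 genes that reached 1 RPKM in 2 or more libraries, Benjamini-Hochberg adjustment over all of them, and a threshold of 0.05. Intervals are 95%. The scripts were tested on simulated data. The members and gene lists were chosen with earlier results of these data known. Beside the 10 members, named genes are the sort genes, C1qc and Itgam, up to 4 genes of each list by mean RPKM, up to 4 of each list that passed in a comparison, the 8 and 4 genes most correlated with the members, and Lyz1, Hmgxb3, Spi1, Ly6g, Mpo, Lyve1, Cd163, Clec10a, Folr2, Ccr2, Ly6c2, Mertk, Trem2, Cx3cr1, Xcr1, Siglech and Flt3, which were added after their values were seen. Promoter windows are RefSeq's for GRCm38.p6, and none of their coordinates was converted.

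Same-numbered libraries deviated together from their group means in VCAM1-negative and VCAM1-high (correlations 0.414, 0.581 and 0.403) and in VCAM1-high and middle-aged (0.211, 0.332 and 0.554), so the numbers were taken to pair them. This pairing comes from the data, as no label says what a number marks. Alternatives were another pseudocount, other filters, 2 rescalings, the compared groups alone, the replicate block and leaving out libraries.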

Additional observations from a re-analysis of the deposited data

How the results depend on the processing

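Leaving out 1 library at a time, the number of members passing ran from 0 to 1 for VCAM1-high against middle-aged cells and from 0 to 2 for VCAM1-negative against middle-aged cells. It stayed at 0 under every alternative run for the comparisons among geriatric gates. With 0.1 in place of 1 added before the logarithm it was 1 for VCAM1-high (S100a8), 2 for VCAM1-negative and 1 for VCAM1-low against middle-aged cells, and 1 in the F test. With only the 2 groups compared it was 1 for VCAM1-negative and 2 for VCAM1-low. Without all number-3 libraries it was 2 for VCAM1-negative (C1qa and C1qb) and 1 for VCAM1-low (S100a9). Where no share of all genes passing is given above for such a fit, that share was not counted. Those counts therefore cannot be set against all genes. The rescalings moved no count, and neither did the filters. The filter at a mean of 5 RPKM left only 4 members in the fit. S100a8 and S100a9 were not among them and could not pass there.

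With the replicate block, S100a8 and S100a9 passed against middle-aged cells in all 3 comparisons and in the F test, 2 each time. Both genes had passed the filter for testing only through geriatric libraries. For VCAM1-negative against middle-aged cells, where same-numbered libraries did not deviate together (correlations -0.0246, 0.0330 and 0.0808), their adjusted p by limma was 0.0448 and 0.0191. For VCAM1-low and middle-aged cells the correlations were 0.147 and 0.0318. An added alternative, chosen after seeing the data, left VCAM1-high replicate 3 out of the blocked fit, and 1, 3 and 2 members then passed for VCAM1-high, VCAM1-negative and VCAM1-low against middle-aged cells and 3 in the F test. The share of all genes passing was not counted for this alternative. The block changed no other count.

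Of 452 values for 24 differences under alternatives, 28 changed sign, 10 of them without VCAM1-high replicate 3. For VCAM1-negative against VCAM1-high, leaving out 1 library gave Lyz2 0.15 to 4.5, Cd68 -0.58 to 1.09, Adgre1 -0.63 to 0.72, Csf1r -0.95 to 1.27, C1qa -0.73 to 1.84, C1qb -0.40 to 2.71, S100a8 -1.59 to 0.19 and S100a9 -1.29 to 0.48. With 0.1 added, Adgre1 was 0.76 and Csf1r 0.89, and without all number-3 libraries they were 0.47 and 1.0. For VCAM1-high against middle-aged cells the ranges were Lyz2 -2.40 to 1.95, Cd68 -0.29 to 1.38, Adgre1 -0.41 to 0.94, Csf1r -0.57 to 1.66, C1qa -0.66 to 1.91 and C1qb -1.19 to 1.93. With 0.1 added, Lyz2 was -0.22, and without all number-3 libraries Lyz2 was -1.17, Cd68 -0.12, Adgre1 -0.13 and C1qb -0.18. For VCAM1-negative against middle-aged cells they were Lyz2 0.76 to 3.33, Cd68 0.58 to 1.03, Adgre1 0.06 to 0.59, Csf1r 0.33 to 1.34, C1qa 0.62 to 2.0, C1qb 0.81 to 2.53, S100a8 1.26 to 2.1 and S100a9 0.99 to 2.0. The median difference of the further macrophage and monocyte genes for VCAM1-high against middle-aged cells turned from 0.78 to -0.47 without VCAM1-high replicate 3, an alternative added after seeing the data. The cause of these changes was not tested. Depth limits the members other than Lyz2 and Cd68, since their lowest libraries hold an estimated 0 to 2.93 reads.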

Other observations

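The VCAM1-negative libraries differed among themselves in which macrophage genes they held. Of the 28 further macrophage and monocyte genes, VCAM1-negative replicate 3 was the highest of its group for 17 and the lowest for 8. Of the 11 endothelial genes it was the highest for 0 and the lowest for 9. Such counts were not made over all genes. What part endothelial RNA has in the order of the genes below was not tested. Mrc1 was lower in replicate 3 (0.262 RPKM) than in replicates 1 and 2 (0.798 and 0.755), and replicate 3 was also the lowest for Lyve1, a hyaluronan receptor, (0.634 against 1.90 and 1.49 RPKM), Cd163, the haemoglobin scavenger receptor (0.335 against 1.44 and 1.21), the lectin gene Clec10a (0.16 against 1.25 and 1.45), Folr2, a folate receptor (0.402 against 1.95 and 0.726), and the monocyte gene Ly6c2 (1.51 against 3.04 and 5.14). Replicate 3 was the highest of the group for Lyz2 (174 RPKM against 43.9 and 53.7), for the integrin gene Itgam (1.30 against 0.212 and 0.335), for the chemokine receptor gene Ccr2 (0.824 against 0.155 and 0.231) and for the class II genes Cd74 (95.2 against 23.3 and 11.4) and H2-Ab1 (34 against 6.82 and 3.75). It was the highest as well for Csf1r and Adgre1, for Mertk, a receptor for apoptotic cells (1.42 against 1.10 and 0.746), for the lipid receptor gene Trem2 (0.957 against 0.145 and 0.338) and for Cx3cr1, the fractalkine receptor (0.324 against 0 and 0). In VCAM1-high replicate 3 genes of either order were high, with Lyve1 at 9.35, Cd163 at 6.73, Itgam at 3.9 and Cd74 at 305 RPKM. These genes other than the members were picked after their values were seen, and no test was made, as 1 library is set against the other 2 of its group.

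Middle-aged replicate 3 held little S100a8 and S100a9 RNA, and its levels of dendritic cell genes were mixed. Of the 7 genes of that list 2 were highest there, Cd209a, a lectin (3.68 RPKM, against 1.99 in VCAM1-high replicate 3), and Flt3, which did not exceed 0.0456 RPKM in any library. Zbtb46 was at 4.29 RPKM there, within its range of 3.06 to 6.75, and Itgax, Xcr1 and Siglech were at 0.0989, 0.0823 and 0.0805. Siglech was higher only in VCAM1-high replicate 3 (0.204) and VCAM1-negative replicate 1 (0.128). Ccr7 was at 0.540 RPKM in middle-aged replicate 3, close to 0.567 in VCAM1-high replicate 3, and at 0.241 or less in the other libraries. Il1b, the inflammatory cytokine gene, was 6.33 RPKM in middle-aged replicate 3 and 0.962 and 0.0665 in the other middle-aged libraries, while Ngp, a granule gene of neutrophils, was at 0.0287, 0 and 0. These genes were picked after their values were seen, and the values are given with no test.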
